A study of Macaca fascicularis with 15 samples.

Results

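The genes described here are those of the Wnt, BMP and TGF-beta, FGF and Notch signalling families, chosen by name: WNT, FZD, SFRP and DKK names, numbered BMP and BMPR names, SMADs, TGFB and TGFBR names, FGF and FGFR names, NOTCH, JAG and DLL names, and HES and HEY names. They were 79 of the 12995 entries kept from tables of RNA sequencing values of the cynomolgus monkey (Macaca fascicularis) eye. Of the 81 matching entries, HES4 carried no value and 1 is not reported here. Tables for 11 libraries were analysed, 4 of central retina, 3 of peripheral retina, 2 of whole retina and 2 of whole eye, all from wild-type animals and each prepared from 1 eye. No treatment, age or animal is named, so p-values measure the spread between these samples, which may in part be technical. Of the 15 sample records, the 4 not analysed here carry the same eye or retina number as 1 of the whole eye or whole retina records used, so they are not labelled as further eyes. Whether a whole-tissue table combines both records of its number is not stated. LRP5 and LRP6, the Wnt co-receptors the same rule asks for, were not analysed here either.

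These families are the signalling systems by which neighbouring cells instruct one another. Wnt ligands bind Frizzled receptors, and secreted inhibitors such as the SFRP and Dickkopf proteins hold them back. BMP and TGF-beta ligands bind pairs of receptor kinases that pass the signal to SMAD proteins, FGFs bind receptor tyrosine kinases, and Notch receptors are set off by Jagged and Delta ligands on adjacent cells, which leads to HES and HEY repressors. In the developing vertebrate eye they help to set the border between retina, pigment epithelium and ciliary body, the dorsal to ventral axis and the choice between neuron and glia.

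Some names fall under the rule without belonging to a pathway in the sense of their prefix. BMP1 is a metalloprotease that trims collagen precursors, and BMP2K is a protein kinase. TGFB1I1 is a focal adhesion adaptor, while TGFBRAP1 is a receptor-associated protein. FGFR1OP and FGFR1OP2 are named after gene fusions with FGFR1. FGF11, FGF12, FGF13 and FGF14 stay inside the cell, where they bind voltage-gated sodium channels.

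The values in the tables are normalized signals without a stated unit, so levels of different genes are not compared in the results. The depth of the libraries is not stated, and the number of entries listed at 0 ran from 171 in whole eye replicate 1 to 501 in central retina replicate 1. Marker genes were used to check the tissue labels. Photoreceptor markers were abundant in every library, with 6 summed genes at 10279 to 17695 in central retina, 16015 to 23953 in peripheral retina, 13407 to 14040 in whole retina and 10679 to 12172 in whole eye. The whole retina libraries also carried the genes of tissue outside the neural retina. Of fibrous stroma, 8 summed genes reached 4.44 to 7.16 in central retina and 12.4 to 19.5 in peripheral retina, against 419 to 470 in whole retina and 510 to 680 in whole eye. Of muscle, 4 summed genes reached 10.3 to 15.3 in central retina and 10.2 to 11.5 in peripheral retina, against 1201 to 1400 in whole retina and 585 to 1239 in whole eye. The pigment epithelium and melanin genes (8 summed) gave 78.0 to 185 in central retina, 403 to 606 in peripheral retina, 2333 to 2504 in whole retina and 2696 to 2736 in whole eye. Lens genes (5 summed) gave 0.23 to 0.5 in central retina, 0.31 to 0.84 in peripheral retina, 14.5 to 23.9 in whole retina and 487 to 488 in whole eye. By these summed markers the whole retina libraries lay near the whole eyes in stroma, muscle and pigment epithelium, and apart from them in lens. Within the muscle sum ACTA1 went the other way, averaging 0.555 ± 0.03536 in whole retina, 2.82 ± 0.6067 in central retina and 24.15 ± 22.1 in whole eye.

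**Figure D1:**
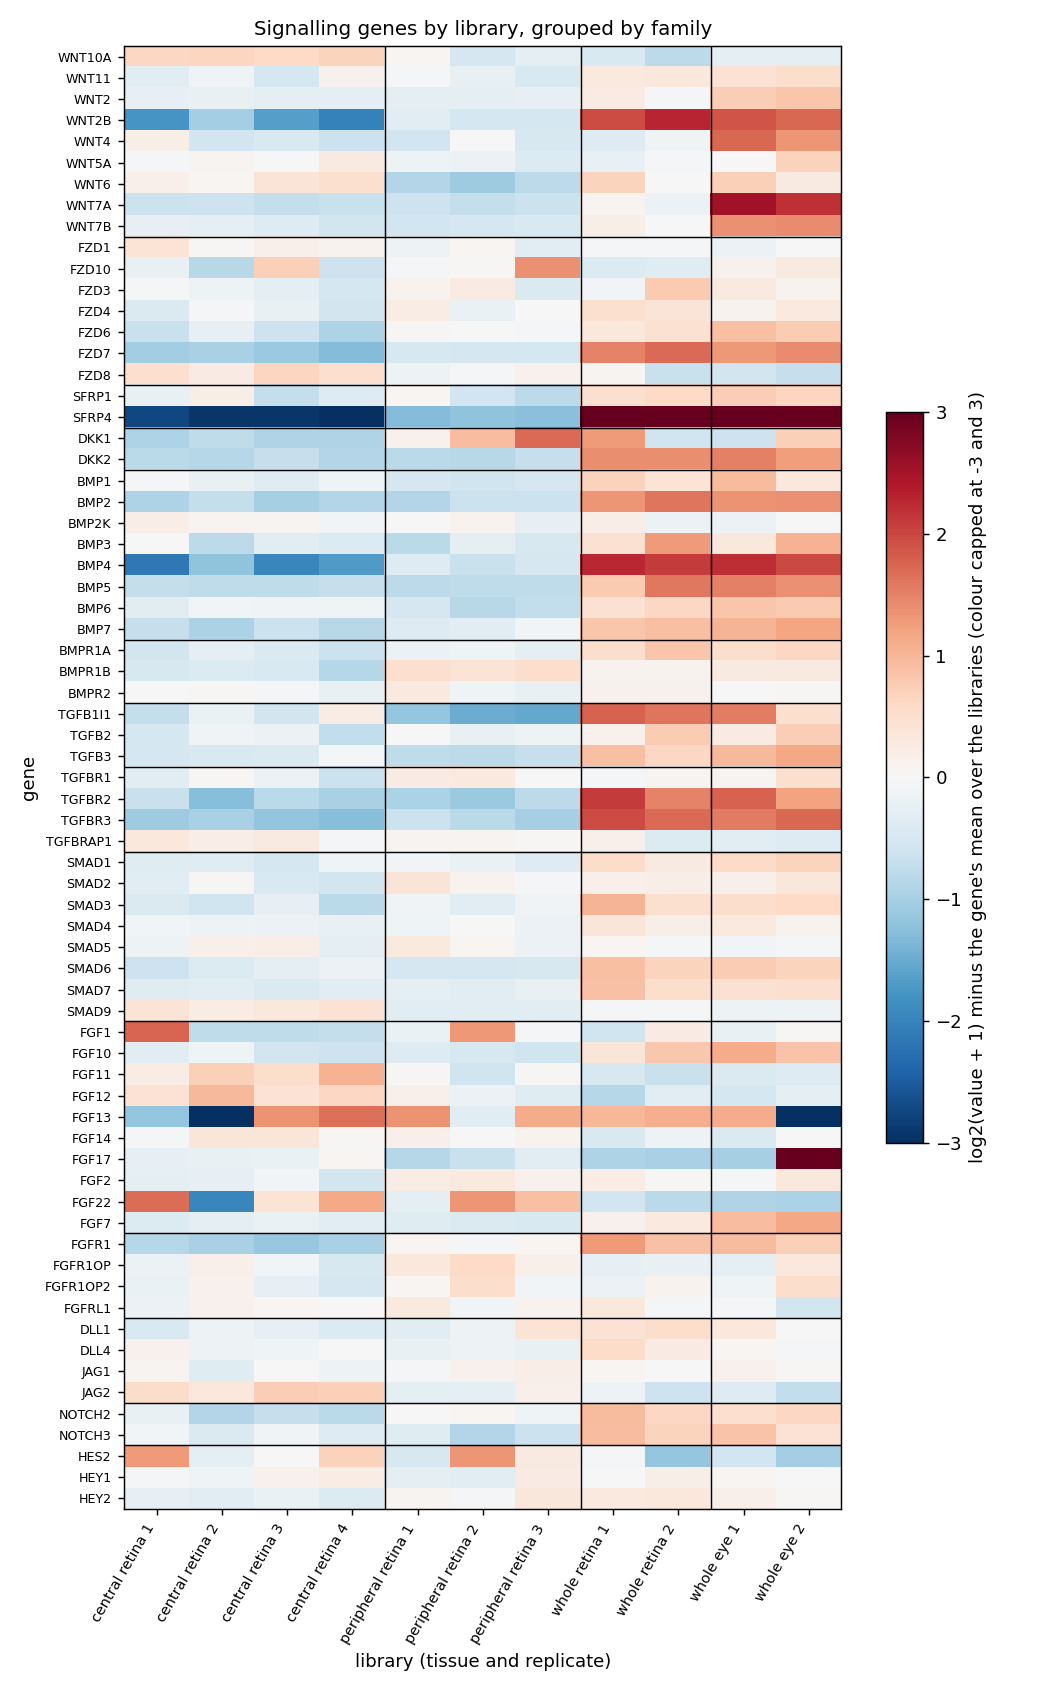
Heat map of the 69 tested signalling genes (rows, grouped by family) in the 11 libraries (columns), coloured by log2(value + 1) minus the gene's mean over all libraries. SFRP4, BMP4, WNT2B, FZD7 and TGFBR3 are blue in the 7 regional libraries and red in the 4 whole retina and whole eye libraries, FGF17 is high and FGF13 low in whole eye replicate 2, and WNT7A is dark only in the whole eyes.

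Of the 79 genes, 69 had a mean of 1 or more in some tissue and were tested. The 10 below that level were BMP15, DKK4, DKKL1, FGF3, FGFR3, FGFR4, WNT3A, WNT8A, WNT9B and WNT16. FGFR3, an FGF receptor, was listed at 0 in every library, and the highest value among the other 9 was 1.07, for WNT16 in whole eye replicate 1. Tests were made with limma on log2(value + 1) over all 11933 tested genes, with Benjamini-Hochberg adjusted p under 0.05 as the threshold. Of the 69, 5 (WNT2, WNT4, WNT7A, WNT7B and WNT11) reached a mean of 1 in whole eye alone, and BMP2, BMP5, DKK2, FGF7, FGF10 and TGFBR3 did so in whole retina and whole eye but in neither region. These genes were tested because their values in those tissues are high, which bears on their direction wherever such a tissue is compared. A log2 difference is on that scale and understates the change of genes with low values.

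Central retina, which holds the macula, was first set against peripheral retina. Of the 69 genes, central retina had 8 higher and 13 lower, 30.4% of those tested, where 21.3% of all 11933 genes passed. Separately, 11.6% of these genes were higher, against 12.5% of all genes, and 18.8% were lower, against 8.76%. The median log2 difference was −0.04 over the signalling genes and −0.01 over all genes tested. By pathway, 2 of 20 Wnt genes were higher and 5 were lower, 3 of 26 BMP and TGF-beta genes were higher and 4 lower, 2 of 14 FGF genes were higher and 2 lower, and 1 of 9 Notch genes was higher and 2 lower. In bulk tissue, fewer cells of a type and less RNA per cell cannot be told apart. Leaving out any 1 of the 7 libraries kept 9 of the 21 calls (SFRP4, FGFR1, BMPR1B, SMAD9, BMP4, WNT6, WNT10A, WNT2B and FZD7), and without peripheral retina replicate 2 there were 3 higher and 8 lower calls (4.35% and 11.6%). The share over all genes also fell without that library, to 11.1%, with 6.95% higher and 4.17% lower.

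**Figure D2:**
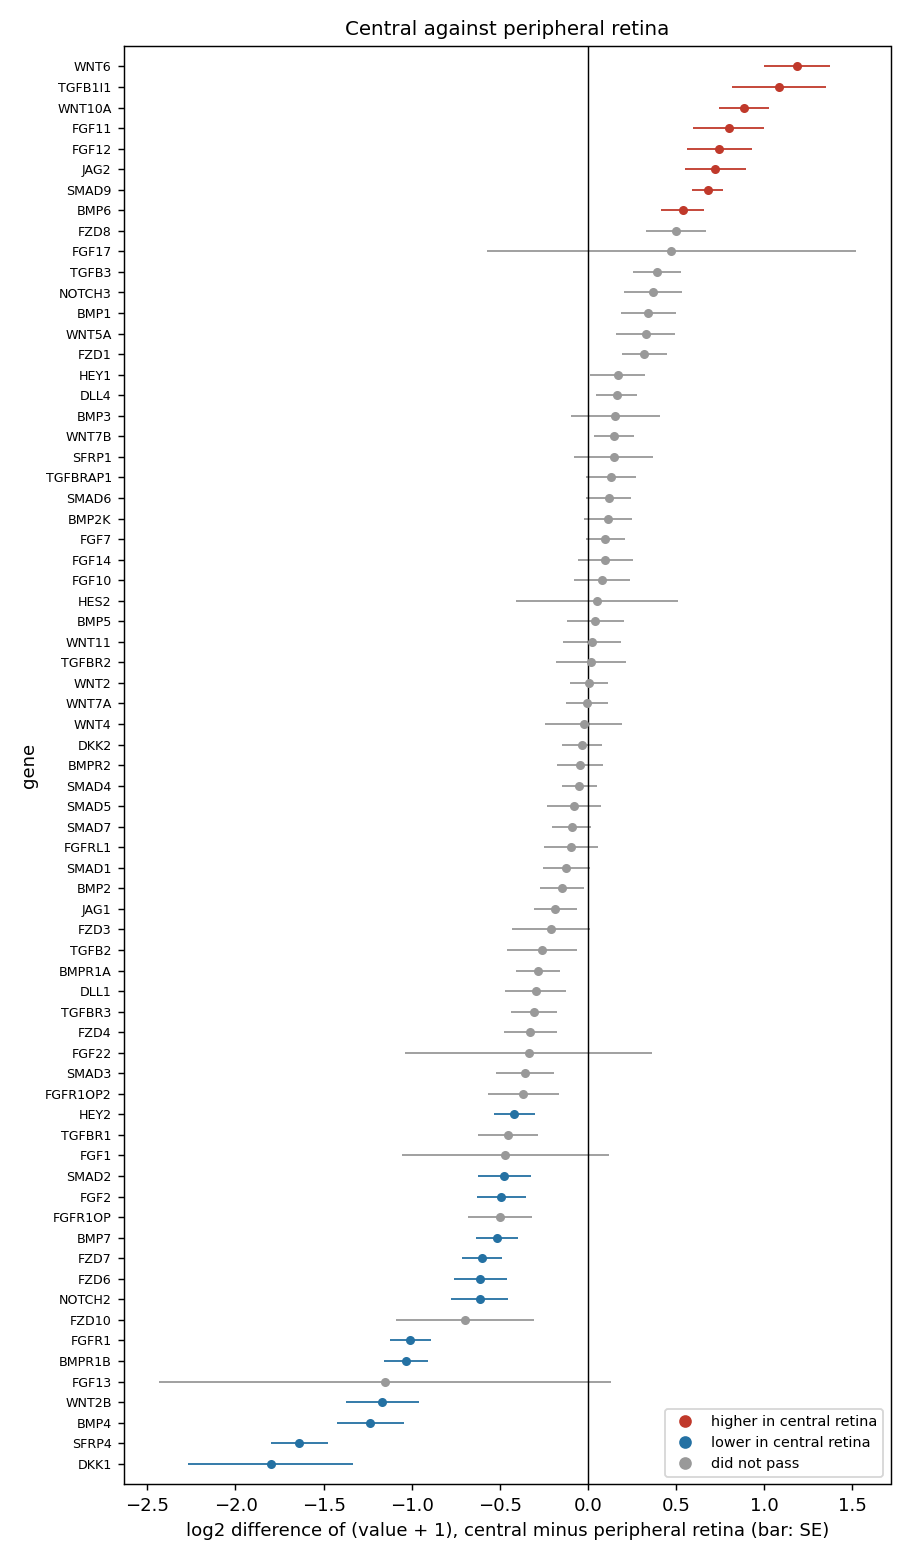
Fitted log2 difference (central minus peripheral retina, horizontal axis, bars are SE) of each of the 69 tested signalling genes. Red genes, from BMP6 at 0.54 to WNT6 at 1.19, were higher in central retina, blue genes, from HEY2 at −0.42 to DKK1 at −1.80, were lower, and grey genes did not pass.

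Among the Wnt ligands, 2 of 9 tested genes were higher in central retina and 1 was lower. WNT6 was listed at 2.00, 1.81, 2.51 and 2.78 in the central libraries, against 0.45, 0.28 and 0.57 in the peripheral ones. Each central library exceeded each peripheral one by more than 3-fold, and the central mean was 5.25 times the peripheral mean (log2 difference 1.19 ± 0.19, SE; limma adjusted p = 0.00128). WNT10A, a ligand of the canonical pathway, had 8.21, 8.41, 8.04 and 8.49 in central retina, against 5.19, 3.21 and 3.89 in peripheral retina. Its central libraries lay closer together than the peripheral ones, with no overlap and a central mean of 2.02 times the peripheral mean (log2 difference 0.88 ± 0.14, SE; limma adjusted p = 0.00134). WNT2B, known in chick and mouse from the ciliary margin of the developing eye, went the other way, at 0.74, 1.94, 0.88 and 0.47 in central retina, against 3.78, 3.14 and 3.16 in peripheral retina. Its highest central library lay under the lowest peripheral one (log2 difference −1.17 ± 0.21, SE; limma adjusted p = 0.00251). The name WNT2 is the start of WNT2B, but WNT2 was at 0.04 or below in all 7 regional libraries, and the sum of both names gave −1.16 (limma adjusted p = 0.0026). The other 6 tested ligands did not pass, among them WNT5A with a central mean of 2.15 ± 0.32 (SD, n = 4) and a peripheral mean of 1.51 ± 0.249 (SD, n = 3) (limma adjusted p = 0.183).

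Of the Frizzled receptors, 2 of 7 were lower in central retina. FZD7 was listed at 0.73, 0.80, 0.65 and 0.45 in central retina, against 1.54, 1.5 and 1.48 in peripheral retina. The peripheral values fell within a narrow band, all above the central ones (log2 difference −0.60 ± 0.12, SE; limma adjusted p = 0.00403). FZD6, a receptor known for planar cell polarity, had 2.86, 4.18, 2.94 and 2.23 in central retina, against 5.26, 5.17 and 4.88 in peripheral retina. The groups did not overlap, and the call (log2 difference −0.61 ± 0.15, SE; limma adjusted p = 0.0149) was lost without peripheral retina replicate 1 or 2, at adjusted p of 0.0515 and 0.0582. FZD8, at 22.7, 18.7, 25.1 and 22.4 in central retina, against 14.1, 14.9 and 17.1 in peripheral retina, did not overlap between the regions either. It missed the threshold at a limma adjusted p of 0.0564. FZD4, the receptor for norrin in retinal vessels, had a central mean of 1.62 ± 0.416 (SD, n = 4) and a peripheral mean of 2.28 ± 0.472 (SD, n = 3) and did not pass (limma adjusted p = 0.143).

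The secreted inhibitors of Wnt signals held the widest gaps between the regions. SFRP4, which binds Wnt ligands outside the cell, was listed at 0.20, 0.05, 0.06 and 0.01 in central retina, against 2.25, 2.46 and 2.35 in peripheral retina. All central libraries were close to 0 while the peripheral ones lay within 0.21 of each other (log2 difference −1.64 ± 0.16, SE; limma adjusted p = 0.000102). DKK1, which blocks the Wnt co-receptors, was at 0.05, 0.17, 0.06 and 0.06 in central retina, against 1.18, 2.80 and 5.50 in peripheral retina. The peripheral libraries differed from each other by several-fold, and the call (log2 difference −1.80 ± 0.47, SE; limma adjusted p = 0.0198) was lost without central retina replicate 4 or peripheral retina replicate 2 or 3, at adjusted p of 0.0507, 0.0647 and 0.0741. SFRP1 did not pass, with a central mean of 9.30 ± 2.63 (SD, n = 4) and a peripheral mean of 8.38 ± 3.01 (SD, n = 3) (limma adjusted p = 0.679). DKK2 was at or below 0.22 in all 7 regional libraries.

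**Figure D3:**
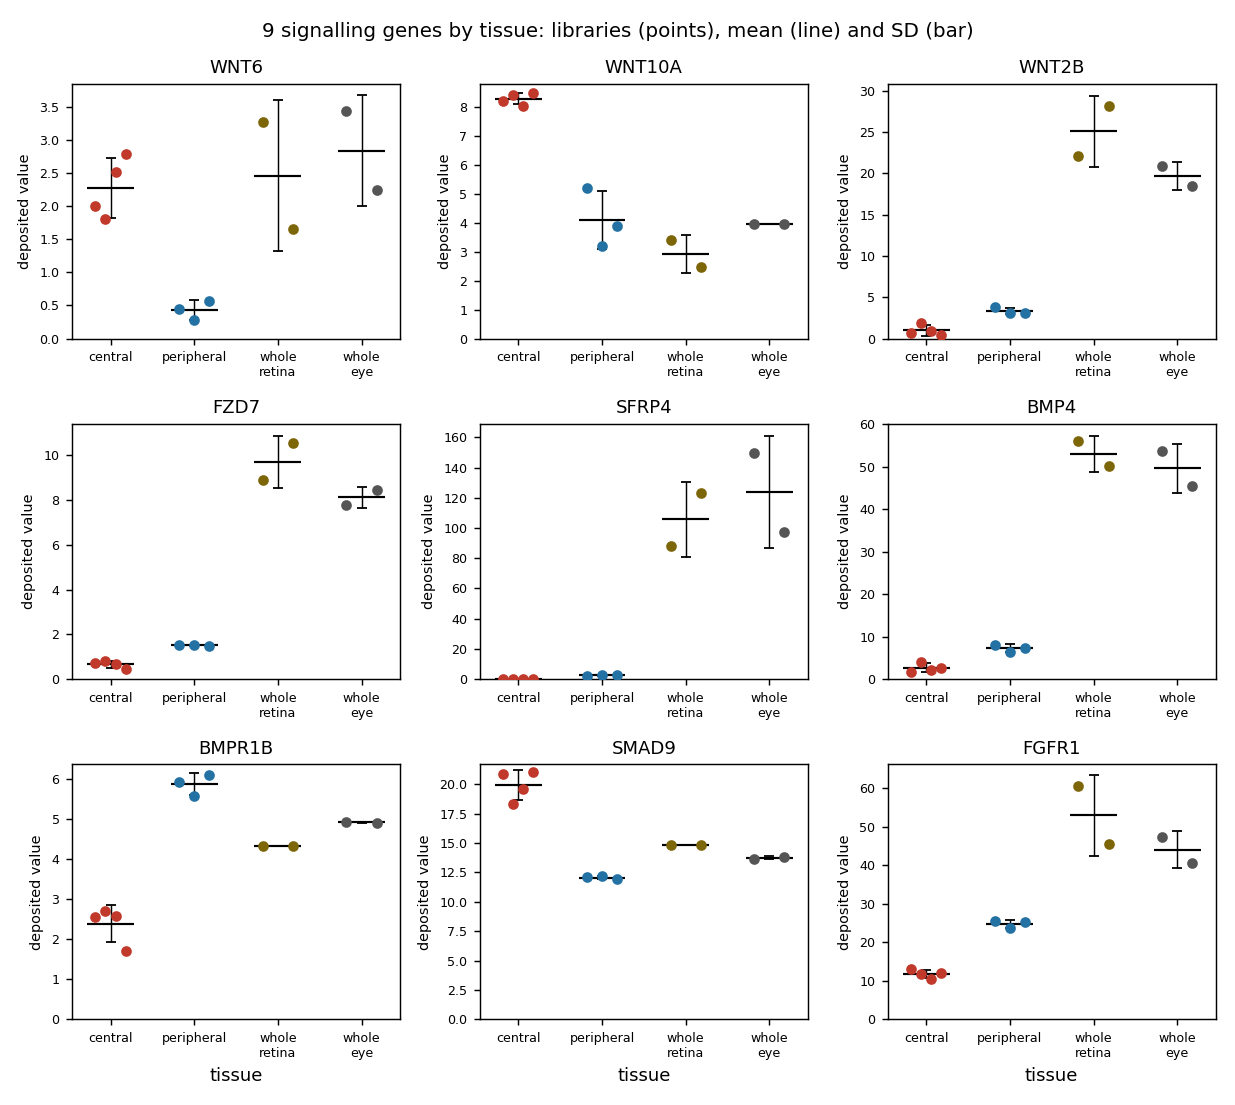
Deposited values of the 9 signalling genes whose call between the regions was kept with each library left out, in central retina, peripheral retina, whole retina and whole eye; points are libraries, lines the mean and bars the SD. In WNT6, WNT10A and SMAD9 the central points lie above the peripheral ones, and in the other 6 genes they lie below.

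Of the 8 tested entries with a BMP name, 1 was higher and 2 were lower in central retina. BMP4, which specifies the dorsal retina in vertebrate embryos, was at 1.70, 4.09, 2.07 and 2.62 in central retina, against 8.09, 6.40 and 7.41 in peripheral retina. Its central mean was 0.359 times the peripheral mean and the regions did not overlap (log2 difference −1.23 ± 0.19, SE; limma adjusted p = 0.00115). BMP7, needed in mouse for the eye to form, had 8.06, 6.62, 8.41 and 7.18 in central retina, against 10.2, 10.7 and 12.9 in peripheral retina. The regions did not overlap, and the call (log2 difference −0.51 ± 0.12, SE; limma adjusted p = 0.0109) was lost without peripheral retina replicate 3, at 0.0512. BMP6 was the exception in direction, at 1.98, 2.50, 2.43 and 2.36 in central retina, against 1.60, 1.06 and 1.22 in peripheral retina. Its groups were also apart (log2 difference 0.54 ± 0.12, SE; limma adjusted p = 0.00969), with the call lost without peripheral retina replicate 2, at 0.0586. The ligands BMP2, BMP3 and BMP5 did not pass, nor did BMP1 and BMP2K.

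Downstream of the ligands, 1 BMP receptor and 2 SMADs differed between the regions. BMPR1B, a type I receptor that in mouse marks the ventral retina, was listed at 2.55, 2.71, 2.59 and 1.70 in central retina, against 5.93, 5.58 and 6.11 in peripheral retina. Central retina reached 0.406 times the peripheral mean (log2 difference −1.03 ± 0.13, SE; limma adjusted p = 0.000275). SMAD9, one of the SMADs that BMP receptors activate, was higher at 20.9, 18.3, 19.6 and 21.0 in central retina, against 12.1, 12.2 and 11.9 in peripheral retina. The 3 peripheral libraries were nearly equal, and the central mean was 1.65 times theirs (log2 difference 0.68 ± 0.09, SE; limma adjusted p = 0.000447). SMAD1 and SMAD5, which share that role, did not pass, at limma adjusted p of 0.547 and 0.752, nor did the common partner SMAD4, with a central mean of 12.4 ± 0.51 (SD, n = 4) and a peripheral mean of 12.8 ± 0.802 (SD, n = 3) (adjusted p = 0.761). SMAD2, of the TGF-beta branch, was at 21.9, 28.7, 20.2 and 18.8 in central retina, against 36.9, 29.9 and 27.3 in peripheral retina. These groups overlapped, and the SMAD2 call (limma adjusted p = 0.046) was lost without any 1 of 5 of the 7 libraries, at up to 0.179. The other BMP receptors, BMPR1A and BMPR2, did not pass.

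Of the entries with a TGFB or TGFBR name, 1 of 7 passed, and it was not a ligand or receptor. TGFB1I1 had a central mean of 4.01 ± 1.49 (SD, n = 4) and a peripheral mean of 1.30 ± 0.328 (SD, n = 3) (limma adjusted p = 0.0154), lost without peripheral retina replicate 2 or 3 (0.0611 and 0.0526). TGFB2, a TGF-beta ligand, had 11.0, 15.0, 14.3 and 9.31 in central retina, against 16.2, 13.7 and 14.5 in peripheral retina. The groups overlapped (limma adjusted p = 0.378). TGFB3 missed the threshold at 0.0652, and the receptor genes TGFBR1, TGFBR2 and TGFBR3 gave limma adjusted p of 0.0788, 0.971 and 0.121.

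The FGF receptor FGFR1 showed the smallest adjusted p of the FGF genes. It was listed at 13.0, 11.9, 10.6 and 11.9 in central retina, against 25.5, 23.6 and 25.2 in peripheral retina. Both groups were tight, and the central mean was 0.478 times the peripheral mean (log2 difference −1.01 ± 0.12, SE; limma adjusted p = 0.000228). The names FGFR1OP and FGFR1OP2 begin with FGFR1, and the sum of the 3 names was also lower in central retina (log2 difference −0.69, limma adjusted p = 0.00242). FGFRL1, a receptor relative without a kinase domain, had a central mean of 17.8 ± 1.68 (SD, n = 4) and a peripheral mean of 19.1 ± 2.59 (SD, n = 3) (limma adjusted p = 0.696).

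Among the FGFs themselves, 2 of 10 were higher and 1 was lower in central retina, and all 3 calls carry a doubt from gene names. In some libraries a value may stand under another name with the same start, which was not tested. FGF13 was at 4.47, 0.01, 30.3 and 37.3 in central retina, 29.9, 8.87 and 25.3 in peripheral retina, 23.4 and 25.1 in whole retina, and 25.6 and 0.01 in whole eye. FGF1, whose name is the start of FGF13, was at 30.9, 4.60, 4.64 and 4.76 in central retina, 7.31, 22.3 and 8.10 in peripheral retina, 5.31 and 10.3 in whole retina, and 7.12 and 8.74 in whole eye. The libraries with high FGF1 (central retina replicate 1 and peripheral retina replicate 2) had low FGF13. FGF17 reached 95.7 in whole eye replicate 2, where FGF13 was at 0.01, and was at 1.43 or below in the other 10 libraries. The sum of the 3 names was 36.4 and 31.6 in the libraries with high FGF1 and 28.9 to 43.5 in most others, but 5.60 in central retina replicate 2 and 104 in whole eye replicate 2. Neither FGF1, FGF13 nor FGF17 passed in any of the 4 comparisons, and a level of these 3 genes cannot be read from single libraries.

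**Figure D4:**
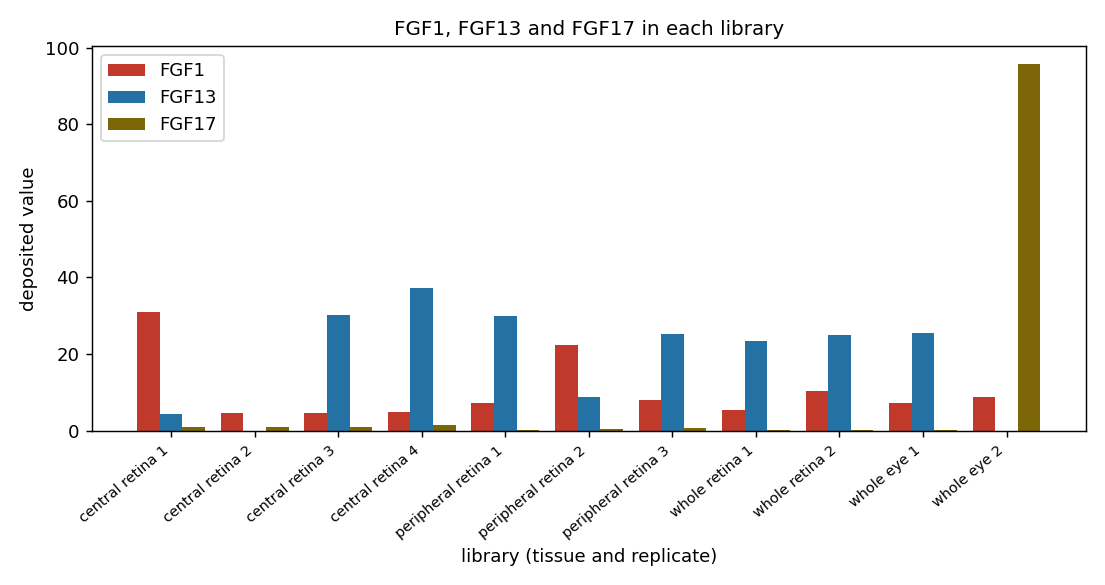
Deposited values (vertical axis) of FGF1, FGF13 and FGF17 in each of the 11 libraries (horizontal axis). FGF13 stands between 23.4 and 37.3 in 7 libraries and drops to 0.01 in central retina replicate 2 and in whole eye replicate 2, where FGF17 is at 95.7.

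FGF12, an intracellular partner of sodium channels, was listed at 27.9, 41.2, 27.98 and 32.2 in central retina, against 22.9, 17.96 and 15.7 in peripheral retina. The groups did not overlap (log2 difference 0.75 ± 0.18, SE; limma adjusted p = 0.0152), but the call was lost without peripheral retina replicate 2 or 3 (0.0605 and 0.0614) and when the values under FGF1 were added (0.192). FGF11, of the same subfamily, had a central mean of 22.4 ± 5.58 (SD, n = 4) and a peripheral mean of 12.4 ± 3.06 (SD, n = 3) (limma adjusted p = 0.0173), and was likewise lost when FGF1 was added (0.198) and without peripheral retina replicate 2 (0.0833). FGF2, the basic FGF, had a central mean of 2.15 ± 0.41 (SD, n = 4) and a peripheral mean of 3.41 ± 0.245 (SD, n = 3). Its call (limma adjusted p = 0.0298) was lost without any 1 of 5 of the 7 libraries, at up to 0.116, and gave 0.621 when the values under FGF22, the longer name, were added.

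Of the 9 Notch genes, the ligand JAG2 was higher in central retina, and the receptor NOTCH2 and the repressor HEY2 were lower. JAG2 had 8.25, 6.83, 9.37 and 9.33 in central retina, against 4.09, 4.18 and 5.97 in peripheral retina. The regions did not overlap (log2 difference 0.72 ± 0.17, SE; limma adjusted p = 0.0136), and the call was lost without peripheral retina replicate 1 or 2 (0.0578 and 0.0652). NOTCH2 was at 6.77, 3.89, 4.61 and 4.18 in central retina, against 7.92, 8.34 and 7.24 in peripheral retina, and central retina replicate 1 came close to the peripheral range (limma adjusted p = 0.0207). HEY2, a repressor induced by Notch, had a central mean of 5.20 ± 0.415 (SD, n = 4) and a peripheral mean of 7.31 ± 1.15 (SD, n = 3) (limma adjusted p = 0.029). Both calls were lost without any 1 of 4 libraries, at up to 0.0845 for NOTCH2 and 0.11 for HEY2. JAG1, at 14.6, 10.6, 13.8 and 12.3 in central retina, against 13.1, 15.0 and 15.8 in peripheral retina, overlapped (limma adjusted p = 0.306). HEY1 overlapped as well, at 8.43, 7.98, 9.87 and 10.5 in central retina, against 7.02, 6.86 and 10.6 in peripheral retina (limma adjusted p = 0.466). DLL1, DLL4, NOTCH3 and HES2 did not pass.

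Further genes of the 4 pathways were taken from lists of regulators and effectors. Of 35 tested Wnt regulators and effectors, 6 rose and 10 fell in central retina (17.1% and 28.6%, where 12.5% of all genes were higher and 8.76% lower), with a median log2 difference of −0.15. WIF1, which binds and blocks Wnt ligands, had a central mean of 174 ± 21.2 (SD, n = 4) and a peripheral mean of 489 ± 24.1 (SD, n = 3) (limma adjusted p = 5.43e-05). FRZB, a relative of the SFRP inhibitors, averaged 160 ± 55.4 in central retina, against 403 ± 72.0 in peripheral retina (limma adjusted p = 0.00178). NDP, which encodes norrin, the ligand of FZD4, averaged 5.19 ± 0.743 in central retina, against 10.1 ± 0.681 in peripheral retina (limma adjusted p = 0.00173). GPC4, a cell surface heparan sulfate carrier, averaged 0.11 ± 0.0163 in central retina, against 1.29 ± 0.332 in peripheral retina (limma adjusted p = 0.000192). These 4 genes of the list, with the smallest p, were all lower in central retina.

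Of 34 tested BMP and TGF-beta regulators and effectors, 2 were higher and 8 lower (5.88% and 23.5%), with a median of −0.06. Its 4 genes with the smallest p included 2 secreted BMP antagonists, both lower in central retina. NOG (noggin) was at 0.35 ± 0.123 in central retina, against 1.68 ± 0.68 in peripheral retina (limma adjusted p = 0.008), and CHRDL1 was at 10.6 ± 2.26 in central retina, against 23.2 ± 3.21 in peripheral retina (limma adjusted p = 0.000744). The name CHRDL1 shares its start with another entry. ID1, a transcriptional regulator induced by BMP signals, had a central mean of 4.92 ± 0.566 and a peripheral mean of 9.87 ± 2.92 (limma adjusted p = 0.00758). ACVR1B, an activin type I receptor whose name also shares its start, was higher, at 23.0 ± 1.44 in central retina, against 14.6 ± 0.834 in peripheral retina (limma adjusted p = 0.00678).

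Of 28 tested FGF regulators and effectors, 5 rose and 3 fell in central retina (17.9% and 10.7%, the lower share near that of all genes; median −0.04). FRS3, an adaptor of FGF receptors, had a central mean of 17.4 ± 2.53 and a peripheral mean of 10.3 ± 0.786 (limma adjusted p = 0.00666). IL17RD, an inhibitor of FGF signals, was lower, at 0.135 ± 0.048 in central retina, against 0.473 ± 0.0322 in peripheral retina (limma adjusted p = 0.0204), a call lost at up to 0.0759 with a library left out. Both of its means were under 1, so it was tested through whole retina or whole eye. Of 30 tested Notch regulators and effectors, 3 were higher and 2 lower, 10% and 6.67%, both below the shares of all genes (median −0.04). DTX4, of the Deltex family of Notch regulators, had a central mean of 12.7 ± 2.08 and a peripheral mean of 26.8 ± 0.396 (limma adjusted p = 0.000699). DNER, a neuronal transmembrane protein related to Notch ligands, averaged 89.7 ± 9.85 in central retina, against 65.0 ± 9.30 in peripheral retina (limma adjusted p = 0.0261), and its call was lost at up to 0.133 with a library left out.

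Markers of several cell types moved between the regions together with these genes, where 8.76% of all genes were lower and 12.5% higher in central retina. Of the pigment epithelium and melanin markers, 7 of 8 were lower in central retina. All 8 summed gave 78.0 to 185 in the central libraries, against 403 to 606 in the peripheral ones. TYR was listed at 0 in at least 1 library. The largest part of these sums was TTR, with a mean of 64.26 in the central group and 286.5 in the peripheral group. RPE65 was the marker that did not pass. Its groups overlapped, with a central mean of 5.645 ± 0.915 and a peripheral mean of 6.89 ± 0.658 (SD; limma adjusted p = 0.185). Of the Müller glia markers, the retina's main supporting cells, 4 of 5 were lower, at 885 to 1147 in the central libraries, against 1528 to 1872 in the peripheral ones. Ganglion cell markers were higher in 6 of 6 cases, at 1967 to 3802 in central retina, against 353 to 647 in peripheral retina. Stroma markers were lower in 3 of 7 tested cases (4.44 to 7.16 in central retina, against 12.4 to 19.5 in peripheral retina, with KERA and OGN at 0 in at least 1 library), and vascular markers in 1 of 5 cases (32.8 to 44.5 in central retina, against 45.0 to 65.4 in peripheral retina). The astrocyte marker ALDH1L1 was lower, at 1.17 ± 0.264 in central retina, against 2.82 ± 0.839 in peripheral retina, as was 1 of 6 photoreceptor markers, SAG (limma adjusted p = 0.00875 and 0.0202). Muscle, lens and corneal markers had 0 calls in either direction. Lens and corneal markers stayed at 0.5 or below and 0.3 or below in central retina, and at 0.84 or below and 2.52 or below in peripheral retina, summed. The part of these cell types in the differences of the signalling genes was not tested.

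Whole retina was then set against whole eye, which adds the front of the eye with cornea and lens. Of the 69 genes, 0 were higher and 5 lower in whole retina (7.25%, where 2.27% of all genes passed and 2.1% were lower). At an unadjusted p under 0.05, limma gave 2 higher and 8 lower. The median log2 difference was 0.02 over the signalling genes and −0.01 over all genes. Of the 5 lower genes 4 were Wnt ligands, out of 9 tested, and the fifth was FGF7. These 4 ligands entered the test through whole eye alone, so they could hardly differ in the other direction, and their count is a description. None of the 26 BMP and TGF-beta genes and none of the 9 Notch genes passed.

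WNT7A, a ligand known from the corneal epithelium, was listed at 0.73 and 0.45 in the whole retinas, against 8.39 and 6.41 in the whole eyes. Both whole retinas were far under both whole eyes, and their mean was 0.0797 times that of the whole eyes (log2 difference −2.40 ± 0.15, SE; limma adjusted p = 2.33e-06). WNT7B had 0.88 and 0.69 in whole retina, against 3.32 and 3.44 in whole eye. The 2 libraries of each tissue differed little from each other (log2 difference −1.30 ± 0.15, SE; limma adjusted p = 0.000288). WNT4 was at 0.48 and 0.77 in whole retina, against 5.43 and 3.85 in whole eye, again without overlap (log2 difference −1.79 ± 0.29, SE; limma adjusted p = 0.00492).

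FGF7, a growth factor that stroma sends to epithelium, had 1.00 and 1.25 in whole retina, against 2.47 and 3.08 in whole eye (log2 difference −0.83 ± 0.15, SE; limma adjusted p = 0.0093). WNT2 had 0.43 and 0.17 in whole retina, against 1.02 and 1.17 in whole eye (log2 difference −0.69 ± 0.14, SE; limma adjusted p = 0.0211). These 2 calls are the least firm. All 5 lower calls rest on a spread shared with the regional libraries. Fitted on the 2 tissues alone, FGF7 and WNT2 gave limma adjusted p of 0.245 and 0.407. In the same fit WNT7A, WNT7B and WNT4 still passed, but like WNT2 they entered the test through whole eye alone. With the replicate number as a block, WNT4, WNT7B, FGF7 and WNT2 missed the threshold (limma adjusted p = 0.0716, 0.109, 0.33 and 0.532). At a pseudocount of 0.1, WNT4, FGF7 and WNT2 missed the threshold (limma adjusted p = 0.0543, 0.0676 and 0.128). Added to WNT2B, with which it shares its name start, WNT2 gave a difference of 0.27 (limma adjusted p = 0.764).

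Lens and corneal genes separated the same libraries. Of the lens markers 5 of 5 were lower in whole retina, at sums of 14.5 to 23.9 in whole retina, against 487 to 488 in whole eye, and of the corneal and conjunctival markers 2 of 2, at 1.03 to 29.4 in whole retina, against 667 to 738 in whole eye. Muscle markers were lower in 1 of 4 cases, ACTA1 (limma adjusted p = 0.00144). Of the pigment epithelium, stroma, vascular, Müller glia, ganglion cell and photoreceptor markers 0 passed in either direction, where 2.27% of all genes passed. The part of lens and cornea in the Wnt differences was not tested. Of 35 tested Wnt regulators and effectors 0 passed between whole retina and whole eye by limma. That is near the share of all genes, of which 2.27% passed. Of 34 BMP and TGF-beta regulators and effectors 2 were lower (5.88%, where 2.1% of all genes were lower). One was TGFBI, a matrix protein induced by TGF-beta and abundant in the cornea, at 28.9 ± 7.14 in whole retina and 303 ± 35.2 in whole eye (SD, n = 2 each; limma adjusted p = 1.35e-06). The other was HFE2, a name with a shared start and a BMP co-receptor of muscle and liver. It was at 0.12 ± 0.0424 in whole retina and 1.73 ± 1.34 in whole eye (SD, n = 2 each; limma adjusted p = 0.0318), a call not kept with each library left out. Of the 2 tissues compared, HFE2 reached a mean of 1 in whole eye alone, so its call is a description.

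**Figure D5:**
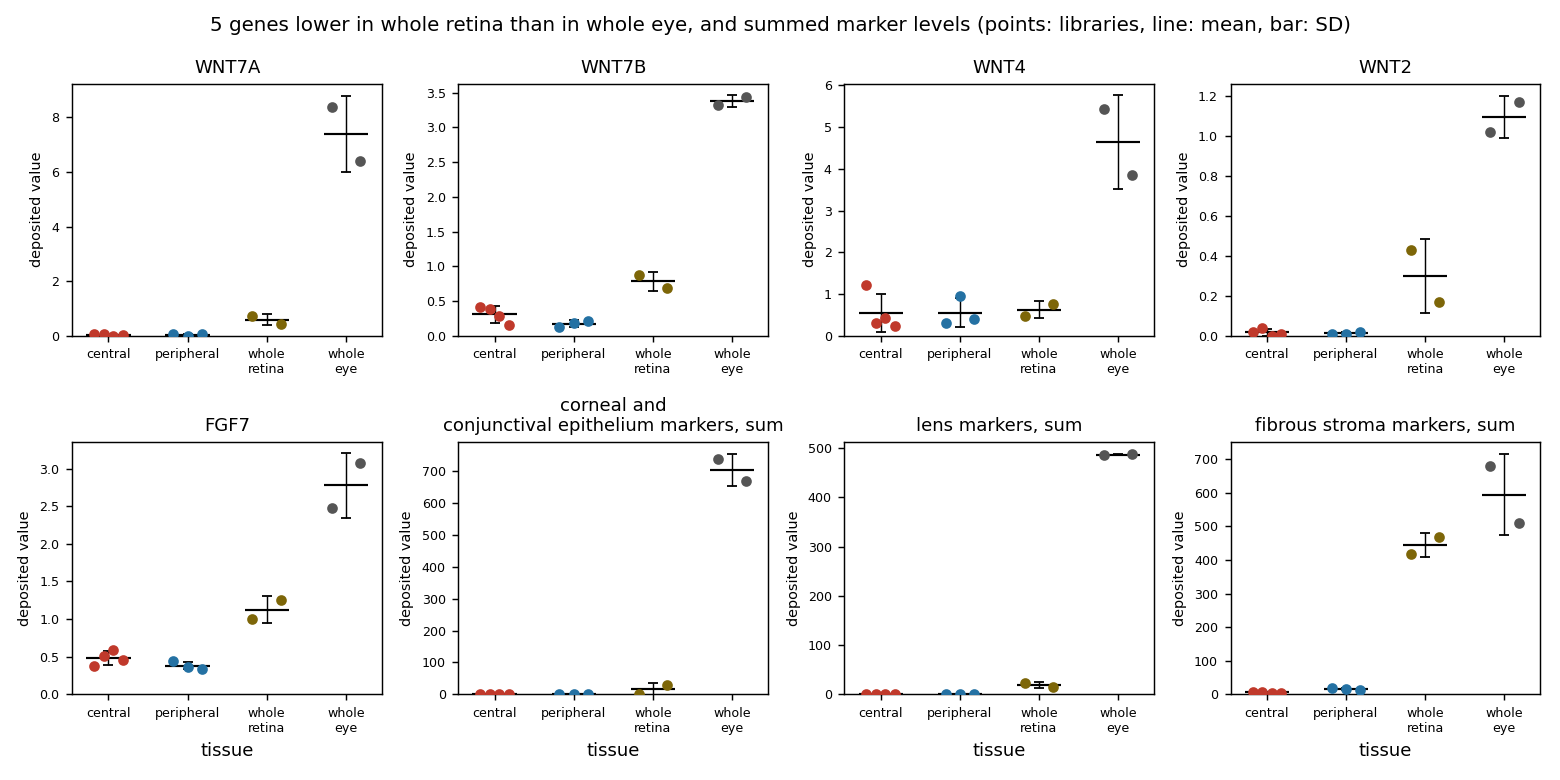
Deposited values of the 5 signalling genes lower in whole retina than in whole eye, and summed values of corneal, lens and stroma marker genes, in the 4 tissues; points are libraries, lines the mean and bars the SD. WNT7A, WNT7B and WNT4 stand at 3.32 to 8.39 in the whole eyes and at 0.88 or below in the whole retinas, and lens and corneal sums separate these tissues too, while stroma sums are high in both.

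Other signalling genes with high values in whole eye did not separate it from whole retina. SFRP4 was at 88.4 and 123 in whole retina, against 150 and 97.5 in whole eye, overlapping (limma adjusted p = 0.766). BMP4 was at 56.1 and 50.1 in whole retina, against 53.8 and 45.6 in whole eye (limma adjusted p = 0.913). WNT2B, FGFR1, TGFBR2, TGFB2, NOTCH2 and DKK2 did not pass either, at limma adjusted p between 0.623 and 0.986.

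Against whole retina, the central libraries were low in most signalling genes. Of the 69 genes, 39 were lower and 7 higher in central retina (56.5% and 10.1%), where 29.7% of all genes were lower and 18.9% higher and 48.7% passed in all. The median log2 difference was −0.59, against −0.11 over all genes. By pathway, 20 of 26 BMP and TGF-beta genes, 11 of 20 Wnt genes, 5 of 9 Notch genes and 3 of 14 FGF genes were lower. The lower genes include BMP2, BMP5, DKK2, FGF7, FGF10 and TGFBR3, which reached a mean of 1 in whole retina and whole eye only. These could hardly differ in the other direction, so the counts are a description. WNT2, WNT7A, WNT7B and WNT11, also lower, reached that mean in whole eye alone and were under it in both tissues compared. The 7 higher genes were WNT10A, FZD8, JAG2, SMAD9, FGF11, FGF12 and FGF14. The FGF14 call was lost when the values under FGF1 were added (limma adjusted p = 0.655), with these tissues fitted alone (0.0586) and without any 1 of 3 libraries (up to 0.236), and the FZD8 call without whole retina replicate 2 (0.111). Equalizing the value distributions of the libraries moved the median of all genes to 0.12 and that of the signalling genes to −0.27. The counts became 25 lower and 12 higher (36.2% and 17.4%), where 21.0% of all genes were lower and 30.8% higher, so the share of lower genes depends on the scaling.

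SFRP4 and BMP4 had the lowest log2 differences, which are on log2(value + 1), at means of 0.08 ± 0.0829 and 2.62 ± 1.05 in central retina (SD, n = 4), against 106 ± 24.8 and 53.1 ± 4.21 in whole retina (SD, n = 2). Their log2 differences were −6.61 ± 0.18 and −3.94 ± 0.22 (SE; limma adjusted p = 1.39e-09 and 1.41e-07). WNT2B, at 1.01 ± 0.645 in central retina and 25.1 ± 4.29 in whole retina, followed with a log2 difference of −3.74 ± 0.23 (SE; limma adjusted p = 3.25e-07). DKK2, a Wnt inhibitor, was at 0.12, 0.09, 0.21 and 0.06 in central retina, against 4.18 and 4.14 in whole retina (limma adjusted p = 1.85e-07). As a ratio of means, BMP5, a BMP ligand, fell further than BMP4, at 0.0575 ± 0.0275 in central retina, against 3.13 ± 1.58 in whole retina (limma adjusted p = 8.57e-06). TGFBR2, the type II TGF-beta receptor, was at 3.85, 2.20, 3.40 and 2.90 in central retina, against 32.0 and 20.7 in whole retina (limma adjusted p = 2.73e-06). The TGF-beta co-receptor TGFBR3 averaged 0.535 ± 0.14 in central retina, against 10.9 ± 1.5 in whole retina. The inhibitory SMADs SMAD6 and SMAD7 averaged 2.13 ± 0.416 and 4.5 ± 0.18 in central retina, against 5.99 ± 0.764 and 10.6 ± 1.96 in whole retina. TGFBR3, SMAD6 and SMAD7 were lower in central retina (limma adjusted p = 8.13e-08, 5.8e-05 and 3.46e-05). DKK2, BMP5 and TGFBR3 entered the test through whole retina and whole eye and through neither region. They could hardly differ in the other direction, so their calls are a description. WNT10A stood out on the other side, at 8.04 to 8.49 in central retina, against 3.39 and 2.46 in whole retina (log2 difference 1.25 ± 0.16, SE; limma adjusted p = 7.16e-05).

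Peripheral retina, compared with the same 2 whole retina libraries, had 32 lower and 0 higher genes of 69, 46.4% of them, where 34.2% of all genes passed, 24.3% lower and 9.83% higher. Limma at an unadjusted p under 0.05 gave 2 higher and 38 lower, and the median of the signalling genes was −0.40, against −0.07 over all genes. Equalizing the distributions gave 8 higher and 24 lower (11.6% and 34.8%), where 26.3% of all genes were higher and 16.9% lower, with a median of −0.08 over the signalling genes and 0.16 over all genes. By pathway, the lower genes were 17 of 26 BMP and TGF-beta genes, 9 of 20 Wnt genes, 3 of 9 Notch genes and 3 of 14 FGF genes. Here too BMP2, BMP5, DKK2, FGF7, FGF10 and TGFBR3 were among them, tested through whole retina and whole eye only, so the counts are a description. WNT7A, WNT7B and WNT11 were among them as well, tested through whole eye alone. SFRP4 averaged 2.35 ± 0.105 (SD, n = 3) in peripheral retina and 106 ± 24.8 (SD, n = 2) in whole retina (log2 difference −4.98 ± 0.19, SE; limma adjusted p = 3.06e-08). BMP4 averaged 7.30 ± 0.85 in peripheral retina, against 53.1 ± 4.21 in whole retina (log2 difference −2.71 ± 0.23, SE; limma adjusted p = 5.7e-06). WNT2B averaged 3.36 ± 0.364 in peripheral retina, against 25.1 ± 4.29 in whole retina (log2 difference −2.58 ± 0.25, SE; limma adjusted p = 1.44e-05). WNT6, at 0.433 ± 0.146 in peripheral retina and 2.46 ± 1.15 in whole retina, was lower (limma adjusted p = 0.00146), and BMPR1B, at 5.87 ± 0.27 in peripheral retina and 4.33 in both whole retinas, did not pass.

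Markers of several tissues and cell types moved with these 2 comparisons. Against whole retina, 29.7% of all genes were lower and 18.9% higher in central retina. In peripheral retina 24.3% of all genes were lower and 9.83% higher. Stroma markers were lower in 7 of 7 tested cases and pigment epithelium and melanin markers in 8 of 8, in each region against whole retina, as were lens markers in 5 of 5, vascular markers in 4 of 5 and muscle markers in 3 of 4. The remaining muscle marker, ACTA1, was higher in central retina, at 2.82 ± 0.607, against 0.555 ± 0.0354 in whole retina (limma adjusted p = 0.0303). The astrocyte marker ALDH1L1 was lower in each region. Müller glia markers were lower in 3 of 5 cases in central and 1 of 5 in peripheral retina, and corneal markers in 2 of 2 and 0 of 2. In central against whole retina, the Müller glia marker GLUL (limma adjusted p = 0.046) passed in only 3 of 13 alternatives. The corneal marker KRT4 (limma adjusted p = 0.041) passed in 4 of 13. Corneal sums were 1.03 and 29.4 in whole retina replicates 1 and 2, so the corneal count rests largely on replicate 2. Ganglion cell markers were higher in 6 of 6 cases in central and 0 of 6 in peripheral retina, and photoreceptor markers in 3 of 6 and 1 of 6. The summed values of photoreceptor, stroma, muscle, pigment epithelium and lens markers in the 4 tissues are given at the start. What these tissues and cells contribute to the lower Wnt, BMP and TGF-beta values of the regions was not tested. For BMPR2, the type II BMP receptor, the 4 tissues were close, at 13.2 to 15.9 in central retina, 13.2 to 19.4 in peripheral retina, 17.0 to 17.2 in whole retina and 15.7 to 15.9 in whole eye, and it passed in none of the 4 comparisons.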

How the data were processed

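Values of 11 libraries of monkey eye and retina were analysed. Per the submitters' processing notes, reads were aligned with GSNAP and counted with HTSeq; no source used here gives versions, genome build or annotation, and coordinates are left out. The deposited signal values, 1 per gene and library, had been normalized by the authors, and neither headers nor labels say how. Each table has 13083 entries; 26 marked ND, 1 without a value and 61 exact duplicates were dropped. Of the 79 genes described, 78 match a symbol of the species' current RefSeq annotation. Tissue labels defined the groups.

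Limma 3.58.1 (R 4.3.3) fitted all 11 libraries in 4 groups with a variance trend, on log2(value + 1), for 11933 genes with a group mean of at least 1; two-sided p-values received a Benjamini-Hochberg adjustment over all of them in each of the 4 comparisons. The plan named an edgeR test in case the files held counts, which they do not. The pipeline was tested on simulated data. Alternatives were a pseudocount of 0.1, no filter, quantile normalization, only the 2 tissues compared, no variance trend, the replicate number as a block, values summed over names that share their start, and each library left out.

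The genes and lists were chosen with earlier results of these data known. Library values are given for genes past the threshold in central against peripheral retina or whole retina against whole eye (up to 14 each by adjusted p) and for the gene of each family with the highest listed mean, a choice for display and no measure of amount; of each list, up to 4 genes by smallest p. Other genes are named to account for counts. The name of a gene shares its start with another listed name in 20 of the 79. Figures were drawn with matplotlib 3.10.9.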

Additional observations from a re-analysis of the deposited data

Results flagged for a closer look

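In central retina, the tissue with 4 libraries, 1 library stood apart from the other 3 in 5 of the 69 tested genes, by the gap to its neighbour as a share of the range (above Dixon's 95% critical value for 4 values). Chance gives about 1 such group in 20. FGF1 in central retina replicate 1 was at 30.9, with the other 3 at 4.60 to 4.76 (gap 0.994 of the range). DKK1 in replicate 2 was at 0.17, with the others at 0.05 to 0.06 (0.917). TGFB3 in replicate 4 was at 4.71, with the others at 3.15 to 3.32 (0.891). For FGF1 above and FGF17 here, values may stand under another name with the same start, which was not tested, so a level cannot be read from a single library. FGF17 in replicate 4 was at 1.43, with the others at 0.95 to 1.02 (0.854). BMPR1B in replicate 4 was at 1.70, with the others at 2.55 to 2.71 (0.842).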

How the results depend on the processing

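Counts of signalling genes called depend on single libraries and on the scaling. Between central and peripheral retina, 8 higher and 13 lower calls became 3 to 9 and 8 to 15 with a library left out, fewest higher calls without peripheral retina replicate 2 and 8 lower calls without that library, peripheral retina replicate 1 or central retina replicate 4. Between whole retina and whole eye, 5 lower calls became 5 to 6 with a library left out, 2 at a pseudocount of 0.1 and 3 with only these tissues fitted, with 0 higher in each. Quantile normalization gave 12 higher and 25 lower calls for central against whole retina (7 and 39 before) and 8 higher for peripheral against whole retina (0 before), where fitting the 2 tissues alone or leaving out whole retina replicate 1 gave 1. With a library left out, central against whole retina gave 6 to 7 higher and 32 to 38 lower calls, and peripheral against whole retina 0 to 1 and 29 to 31. Under quantile normalization 4 calls of central against whole retina changed sign without passing, DLL4 (0.071), FGF7 (0.098), WNT11 (0.101) and WNT7B (0.179), and WNT2 went to 0.0. Summing shared name starts turned WNT2 in whole retina against whole eye (0.271) and FGF10 in peripheral against whole retina (0.311), in both cases because a gene with higher values was added. The cause of the other changes was not tested. In all alternatives together 9 of the 21 calls between the regions, 1 of 5 between whole retina and whole eye, 25 of 46 and 21 of 32 against whole retina stayed past the threshold in the same direction. Depth is not stated, so genes listed near 0 have no known floor.

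Replicate numbers do not pair the libraries by any label. Deviations from the group means correlated between central and peripheral libraries of the same number at −0.139, −0.0609 and 0.357, and central replicates 1 and 2 correlated best with peripheral replicates 2 and 1 (0.363 and 0.347), across 11933 genes that are not independent replicates. With the number as a block, the fit gave 6 higher and 7 lower calls between the regions and 1 lower between whole retina and whole eye, with fewer residual degrees of freedom by construction.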

Other observations

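HES2 and FGF22, like FGF1, were highest in central retina replicate 1 and peripheral retina replicate 2 of their regions. Any pair of libraries would be highest in some genes, and the number of such genes was not counted. The deviations of these 2 libraries from their group means correlated at 0.363 over the tested genes, the highest value between the regions. Those of replicate 3 of each region correlated at 0.357. What these libraries share was not tested. HES2, a repressor of the Notch family, was at 7.80, 2.01, 2.68 and 4.89 in central retina and at 1.60, 8.18 and 3.41 in peripheral retina. FGF22, a name that starts with FGF2, was at 11.3, 0.00, 4.12 and 7.49 in central retina and at 2.17, 8.71 and 6.24 in peripheral retina. In both genes the spread within a region exceeded the difference between the regions, and neither passed between them by limma. FZD10, at 1.04, 0.33, 2.91 and 0.54 in central retina and 1.29, 1.46 and 5.19 in peripheral retina, was instead highest in replicate 3 of each region. DKK1 differed within whole tissues too, at 3.86 and 0.32 in the whole retinas and 0.29 and 2.26 in the whole eyes.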
